A study of Mus musculus with 6 samples.

Results

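The dystrophin complex and laminin genes taken here were 8: Dmd, Utrn, Sgcd, Sgcz, Dag1, Lama2, Dtna and Itga7. They were chosen by name, and their data are the regions of the deposited H3K9me3 table that carry one of these gene symbols. These were 326 of 202553 regions, and all 8 genes had at least 1 region, so none was unmarked by this rule. Sgcz had 93 regions, Sgcd 79, Utrn 44, Lama2 38, Dmd 37 and Dtna 33, while Dag1 and Itga7 had 1 each. Together they took between 0.119% and 0.132% of the counts of a library.

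Quadriceps femoris, a large thigh muscle, was compared between the genotypes Prr14-WT (3 libraries, numbered 3, 4 and 8) and Prr14-KO (3 libraries, numbered 4, 5 and 7). H3K9me3 was measured by CUT&Tag, which inserts sequencing adapters next to an antibody-bound histone mark, in frozen muscle. Prr14 encodes a tether between heterochromatin and the nuclear lamina, and the mark does not check its deletion. For strain, age, sex and the deleted part of Prr14 nothing is given in the labels. They also do not say that each library came from a separate mouse, so the p-values below measure the spread between these libraries, which may be technical. Whole muscle also holds nuclei of vessel, connective tissue, nerve and immune cells, and a mark held by fewer cells cannot be told apart from less of the mark per cell.

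Dystrophin, encoded by Dmd, links the actin cytoskeleton of the muscle fibre to a complex in its membrane, and that complex binds laminin in the basement membrane outside. Loss of dystrophin, of delta-sarcoglycan (Sgcd) or of the laminin alpha 2 chain causes muscular dystrophy. H3K9me3 is the mark of constitutive heterochromatin and is found over repeats, silent gene clusters and gene-poor stretches, and it is typically sparse over the bodies of active genes.

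Library totals ran from 4324444 to 4756133 counts over all regions. Tissue identity cannot be read from levels of expression here, since the mark does not measure it. Of 10 genes typical of myofibres, 3 had a region within 3 kb of a start site, as did 7 of 16 genes typical of other cells of muscle, beside 54.4% of all 16587 symbols in the table. Of the sums of these markers 6 and 14 were tested, by edgeR 0 of each passed (0.0393% of all gene sums did), and 1 of each had an unadjusted p under 0.05 (3.58% of all). The groups did not overlap for Mb, the myoglobin gene, which was higher in the knockouts (log2 change 0.39, SE 0.19), nor for Dcn, a fibroblast gene (-0.23, SE 0.10), and Acta2, a smooth muscle gene (-1.35, SE 0.70), where 8.5% of all gene sums did not overlap; these 3 were named after their values were seen, and edgeR's adjusted p was 1.00 for each. Their part in the results below was not tested.

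Sequences before the start sites are shown for 3 members, because they differ in CpG content and in how near a region lies. Windows of 300 bases, 250 before a RefSeq start and 50 after it (GRCm38.p6), were found for 5 of the 8 genes, with 7 starts in all. A region overlapped the window of Lama2 and none of the other 6, where 11.8% of all 32851 windows were overlapped. The nearest region lay 13267 bp from the upstream Dmd start in that table, 50746 bp from its internal start, 19115 bp from the Utrn start, 11037 bp from the listed Sgcd start and 10426 and 10569 bp from the Dag1 starts. All of these starts, and that of Lama2, lie inside the RefSeq spans of their genes. The 5′ end of the Lama2 span is at 27617191 and that of the Dag1 span at 108263977. Of the bases printed below, all of Dmd, nearly all of Lama2 and most of Dag1 thus lie within the span. The 5′ end of the Sgcd span has a region of its own, described below. The 250 bases before the start follow, 5′ to 3′ on the strand of the gene, with CpG dinucleotides in capitals. Lama2 is shown as the start with a region beside it. Dmd is shown as the longest gene, with the lowest mean of the mark per length, although the range of Dag1 overlapped its own. Dag1 is shown as the start with the most CpG.
Lama2 (chr10:27616943-27617192, minus strand): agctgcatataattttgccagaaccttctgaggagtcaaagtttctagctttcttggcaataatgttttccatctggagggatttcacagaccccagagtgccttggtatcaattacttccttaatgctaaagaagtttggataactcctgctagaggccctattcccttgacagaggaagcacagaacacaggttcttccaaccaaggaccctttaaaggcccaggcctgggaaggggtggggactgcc
Dmd (chrX:82948620-82948869, plus strand): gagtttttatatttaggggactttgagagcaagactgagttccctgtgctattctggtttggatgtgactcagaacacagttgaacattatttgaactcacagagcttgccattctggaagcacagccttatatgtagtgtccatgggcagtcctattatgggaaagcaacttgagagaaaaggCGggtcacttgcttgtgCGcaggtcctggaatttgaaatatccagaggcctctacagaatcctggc
Dag1 (chr9:108263816-108264065, minus strand): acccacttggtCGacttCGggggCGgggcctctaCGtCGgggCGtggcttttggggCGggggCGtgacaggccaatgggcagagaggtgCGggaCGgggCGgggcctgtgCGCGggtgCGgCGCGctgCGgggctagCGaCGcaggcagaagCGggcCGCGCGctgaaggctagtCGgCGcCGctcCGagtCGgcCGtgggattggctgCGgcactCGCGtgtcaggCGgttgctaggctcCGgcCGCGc
The Lama2 sequence held 0 CpG, as did 7.87% of all windows, and its GC content was 47.2%. That of Dmd held 2 CpG with 45.2% GC, and that of Dag1 36 CpG with 74.8% GC, where the median of all windows was 6 CpG and 52.4%. Across all windows, those with 0 CpG were overlapped by a region in 5.61% of cases and those with over 20 CpG in 20.4%. Lama2 lay in the CpG class least often overlapped by a region, and Dag1 in the class most often overlapped. Neither CTANNNNTAG, a form of the site bound by MEF2 factors with its middle left free, nor the E-box CAGCTG was found on either strand of the 7 sequences, beside 3.20% and 13.0% of all windows.

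The amount of the mark inside the genes differed widely among the members. Per length of the RefSeq gene span, Sgcz held 46.5 ± 2.0 CPM per 100 kb (CPM are counts relative to the library total, scaled between libraries; SD, n = 6 libraries of both genotypes), and Dmd held 1.51 ± 0.295, a difference of 30.8-fold. Between them lay Sgcd at 28.7 ± 1.51, Dtna at 25.4 ± 3.5, Itga7 at 18.6 ± 5.88, Lama2 at 8.77 ± 1.51, Utrn at 3.63 ± 1.40 and Dag1 at 3.10 ± 2.69. The ranges over libraries overlapped between the neighbours Sgcd and Dtna, Dtna and Itga7, Utrn and Dag1, and Dag1 and Dmd, so the order within those pairs was not separated by the spread. Sgcz stood above Sgcd in all libraries, Itga7 above Lama2, and Lama2 above Utrn. Itga7 and Dag1 are short genes, with 2 regions and 1 region in their spans, and their values rest on few counts. Of the 2 in Itga7, 1 is assigned by the authors to another symbol, Mettl7b. That region held 3.24 CPM in wild-type and 2.94 in knockout muscle (means of 3 libraries), and the region with the Itga7 symbol 1.79 and 1.27. The place of Itga7 in the order above includes the Mettl7b region. The 1 region in the Dag1 span is assigned to Bsn.

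Of the 6 long members 5 held less of the mark inside the gene than around it, as did 68.4% of the 989 protein-coding genes with a span of at least 200 kb, whose median log2 ratio of gene to flanks was -0.44. The 500 kb on each side of a gene were taken as its flanks, a comparison chosen after the positions of the regions had been seen. In Utrn the flanks held 7.17-fold more of the mark per length than the gene, in Dmd 5.60-fold, in Lama2 3.28-fold, in Sgcd 1.54-fold and in Dtna 1.5-fold, and each of these 5 genes was below its flanks in 6 of 6 libraries. Sgcz was level with its flanks, at a log2 ratio of 0.04 ± 0.05 (SD, n = 6), and was below them in 1 library of 6. With flanks of 250 kb its ratio turned to -0.093. How much of each span can be covered by mapped reads was not tested.

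**Figure D1:**
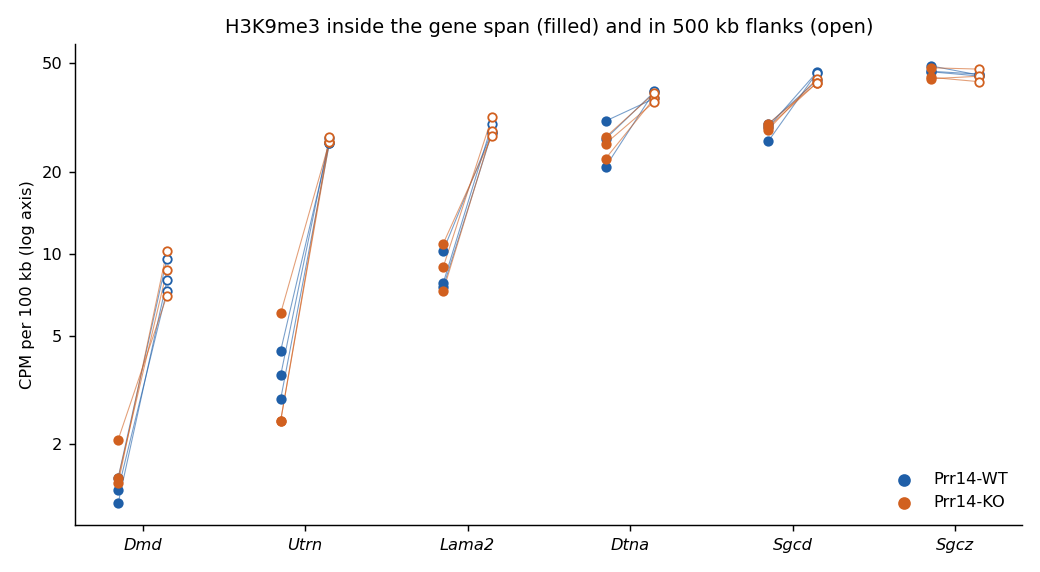
H3K9me3 per 100 kb (CPM, log axis) inside the RefSeq span of each gene (filled points) and in the 500 kb on each side (open points), with 1 line per library, blue for Prr14-WT and orange for Prr14-KO. The lines rise from gene to flanks in all libraries for Dmd, Utrn, Lama2, Dtna and Sgcd and are nearly level for Sgcz.

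The same order was seen in the number of regions among long genes. Over the 989 long genes the median was 6.75 regions per 100 kb (quartiles 3.84 and 9.46). Dmd, with 0.753, lay above 3.84% of them, Utrn with 1.64 above 9.20% and Lama2 with 2.99 above 20.02%. Dtna with 6.58 and Sgcd with 6.87 lay near the middle, above 48.5% and 51.3%. Sgcz with 10.2 regions per 100 kb lay above 81.7% of these genes.

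The position of Dmd in that order moved with its chromosome. The X held 2.03 regions per 100 kb in the table and the autosomes 8.07. Among the 45 long genes on X, whose median was 0.764, Dmd lay above 46.7%. Its ratio to its own flanks was lower than the median of those 45 genes (-2.41 on the log2 scale, beside a median of -1.39, both from means over libraries), and lay above 26.7% of them. For Utrn, an autosomal gene, the ratio lay above 4.66% of the 944 long autosomal genes, and for Lama2 above 14.7%. The ratios of Sgcd, Dtna and Sgcz lay above 41.6%, 43.3% and 69.8% of the same genes, nearer the middle. The share of counts on X was 1.21% ± 0.0178 in wild-type muscle against 1.19% ± 0.0798 in knockout muscle (SD, n = 3; exact permutation p = 0.70, two-sided), and that on Y below 90 Mb was 0.117% ± 0.00611 and 0.117% ± 0.0124 (exact permutation p = 0.90, two-sided).

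**Figure D2:**
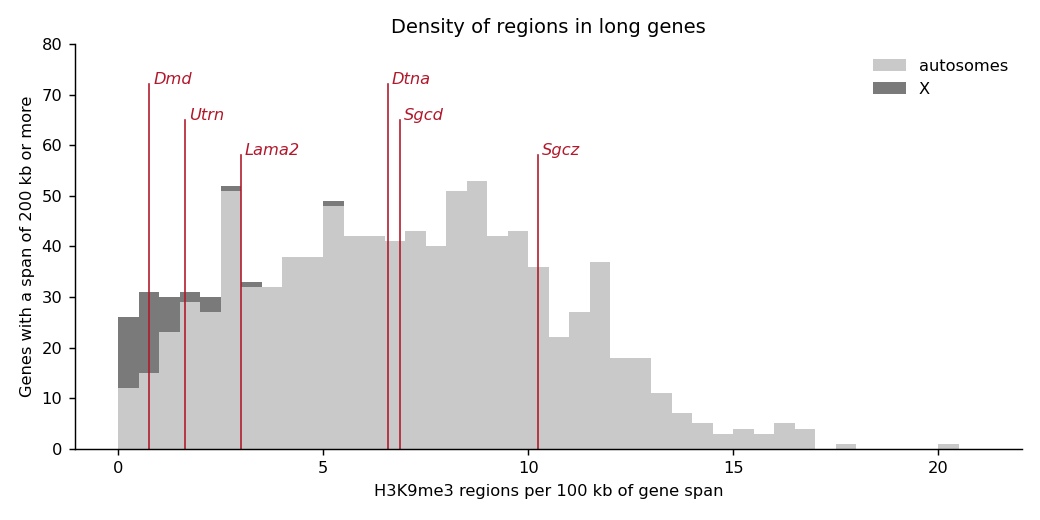
Number of protein-coding genes with a span of 200 kb or more (stacked bars, light grey for autosomes and dark grey for X) by H3K9me3 regions per 100 kb of span, with the 6 long members as red lines whose height has no meaning. Dmd, Utrn and Lama2 lie at the low end, at 0.753, 1.64 and 2.99, Dtna and Sgcd near the median, and Sgcz at 10.2.

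Dmd spans 2390 kb on X (82814664 to 85205050, GRCm38), and only 18 regions lay in it, covering 0.234% of its length. Of these 18, 6 are assigned by the authors to another symbol, Tsga8, and do not enter the sums by symbol given below. The longest stretch without a region ran for 564 kb, from 782 to 1346 kb after the start of the span. Cut into 3 parts of equal length from the 5′ end, the gene held 8, 3 and 7 regions. Of the 37 regions with its symbol, 9 were intronic by the authors' annotation and 28 intergenic. The intergenic ones lay before the gene model of the authors' table, which begins at 82948903, and 12 of the 37 lay inside the longer RefSeq span. The strongest of them, 507527 bp upstream at 82440596 to 82442156, held 67, 57 and 59 counts in the wild types (in the order 3, 4, 8, here and below) and 58, 58 and 37 in knockout muscle (4, 5, 7). Knockout replicate 7 was the lowest and the other 5 libraries were close together.

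Utrn encodes utrophin, the autosomal relative of dystrophin that is concentrated at the neuromuscular junction in adult fibres. Its span of 488 kb on chromosome 10 (12382187 to 12869888) held 8 regions, with a longest empty stretch of 163 kb. The other 36 of its 44 regions were intergenic. Most of these lay beyond the 3′ end of the gene, and the strongest was a region at 11957208 to 11958615, 590967 bp from the assigned start, with 83, 87 and 59 counts in wild-type muscle against 68, 50 and 42 in knockout muscle. Wild-type replicate 8 lay within the range of the knockouts there. The only Utrn region annotated to a promoter, at 12825731 to 12826185, had its midpoint 43.9 kb after the start of the RefSeq span. It had 13, 4 and 22 counts in wild-type muscle against 5, 3 and 3 in knockout muscle. That region was too weak to be tested, and the groups overlapped. The exonic Utrn region, at 12663304 to 12663516, held 16, 8 and 19 counts in wild-type muscle against 9, 14 and 13 in knockout muscle, which overlapped as well.

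Lama2 encodes the laminin alpha 2 chain of the muscle basement membrane. Its span of 636 kb on chromosome 10 (26981285 to 27617191) held 19 regions, and a stretch of 158 kb behind the first 13.1 kb of the gene held none. The region at its start, at 27616692 to 27616930, overlapped the 50 bases after the RefSeq start whose upstream sequence is given above. It held 19, 8 and 23 counts in wild-type muscle against 2, 8 and 24 in knockout muscle, so both groups spread widely and overlapped. Stronger regions lay upstream in the intergenic stretch, led by one at 27824567 to 27826045, with 85, 81 and 57 counts in wild-type muscle against 94, 63 and 55 in knockout muscle.

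Dtna encodes alpha-dystrobrevin, the cytoplasmic partner of dystrophin. Its strongest region lay at the very start of the longer RefSeq span, with its midpoint 0.586 kb inside it, although the authors' shorter gene model, which begins at 23415135, made it intergenic. That region held 95, 54 and 72 counts in wild-type muscle against 72, 72 and 62 in knockout muscle, and the groups overlapped. Of the 33 Dtna regions 15 were intronic, 16 intergenic, 1 exonic and 1 between 1 and 2 kb from a start. That last region had its midpoint 343 kb after the start of the 350 kb RefSeq span, near the 3′ end of the gene. The exonic one, at 23595612 to 23595773, held 5, 5 and 10 counts in wild-type muscle against 8, 18 and 10 in knockout muscle, and the one near a start, at 23653282 to 23653482, held 8, 9 and 10 against 6, 16 and 6. Knockout replicate 5 was the highest library at both.

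The sarcoglycans are membrane proteins that stabilise the complex, and delta-sarcoglycan (Sgcd) and zeta-sarcoglycan (Sgcz) are close relatives. Both are encoded by genes of over 1000 kb, yet with different amounts of the mark. The Sgcd span of 1018 kb on chromosome 11 (46971077 to 47989451) held 70 regions, and the Sgcz span of 1144 kb on chromosome 8 (37517840 to 38661705) held 117. Regions covered 2.87% of the length of Sgcd and 4.73% of that of Sgcz, and their longest empty stretches were 48.5 and 38.3 kb. Of the regions inside Sgcz, 42 are assigned by the authors to another symbol, AI429214. In 3 equal parts from the 5′ end, Sgcz held 36, 30 and 51 regions, and Sgcd 27, 27 and 16. The strongest Sgcz region, 2021 bp wide at 38658711 to 38660732, lay just inside the gene. Its midpoint was 1.98 kb after the RefSeq start, and it is annotated by the authors as promoter. It held 103, 94 and 110 counts in wild-type muscle against 91, 71 and 70 in knockout muscle. All knockout values were below all wild-type values, where the groups did not overlap in 9.61% of all tested regions. The strongest Sgcd region was intronic, at 47427809 to 47428819, with 88, 95 and 96 counts in wild-type muscle against 109, 80 and 66 in knockout muscle, which overlapped. The Sgcd region nearest to a start in the authors' shorter gene model, 8741 bp upstream of it at 47587629 to 47587783, held 8, 5 and 2 counts in wild-type muscle against 10, 21 and 13 in knockout muscle. All knockouts were higher there, but the counts were too low to be tested. How often the groups separate among such untested regions was not counted. At the start of the longer RefSeq span lay a stronger region, named after its values were seen, with its midpoint 0.594 kb inside the gene (47988442 to 47989272), and it held 50, 36 and 73 counts against 33, 46 and 37, which overlapped.

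Dag1 encodes dystroglycan, the laminin receptor to which dystrophin binds, and Itga7 the alpha 7 chain of the laminin-binding integrin of muscle. Both are short genes with 1 assigned region each. The values per length given above count all regions in a span, whatever their symbol. They include 1 region assigned to Mettl7b in Itga7, and in Dag1 they rest on 1 region assigned to Bsn. By that count Itga7 stood above Lama2, Utrn and Dmd. The single Dag1 region was intergenic, 10834 bp upstream of the start on chromosome 9 (108274634 to 108274949), with 6, 4 and 7 counts in wild-type muscle against 0, 2 and 21 in knockout muscle. All of its higher value in knockout muscle came from replicate 7. The Itga7 region was exonic (chromosome 10, 128943797 to 128943960), with 15, 2 and 8 counts in wild-type muscle against 8, 7 and 2 in knockout muscle. Neither was strong enough to be tested.

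**Figure D3:**
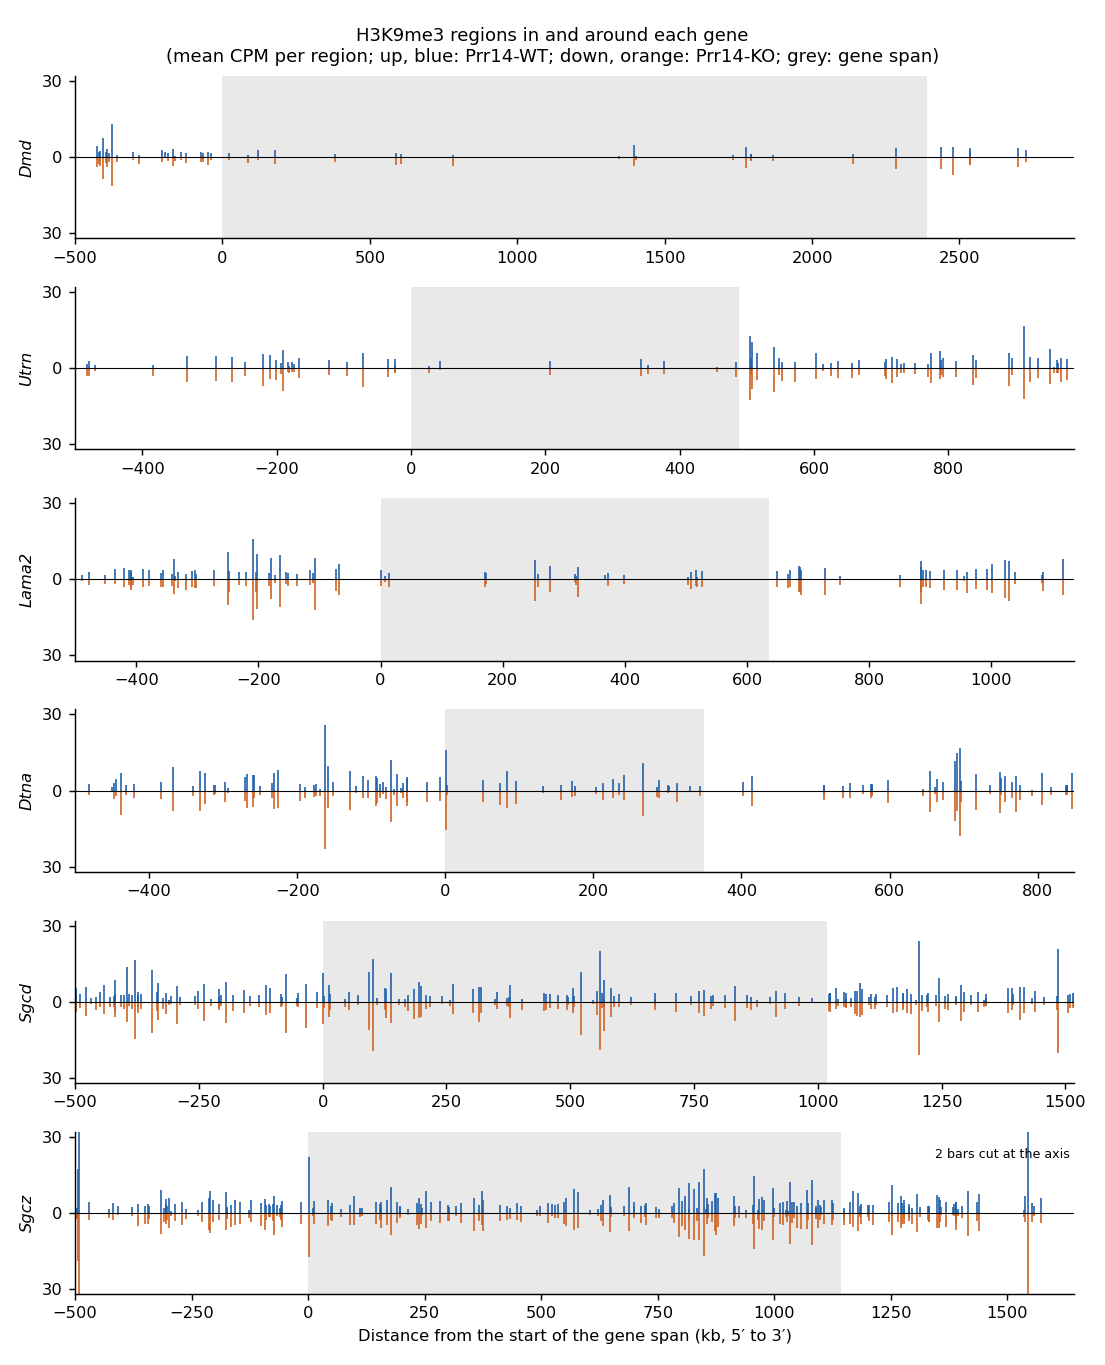
Mean CPM of each H3K9me3 region in and within 500 kb of the 6 long members, against the distance from the start of the RefSeq span in kb, read 5′ to 3′ (blue, upward: mean of 3 Prr14-WT libraries; orange, downward: mean of 3 Prr14-KO libraries; grey: gene span). Regions are sparse inside Dmd and Utrn and dense throughout Sgcz, and the profiles of both genotypes mirror each other; 2 bars beside Sgcz exceed the axis.

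The comparison of genotypes asks whether loss of Prr14 changed H3K9me3 at these genes. No change was detected in any of them. The sum of all regions with the symbol Dmd was 104, 84.4 and 100.6 CPM in wild-type muscle against 106, 108 and 92.2 CPM in knockout muscle, and the groups overlapped. The means were 96.3 ± 10.52 and 102 ± 8.83 CPM (SD, n = 3). The log2 change, knockout over wild type, was 0.09 (SE 0.11; 95% interval -0.13 to 0.30), and the adjusted p of edgeR was 1.00 for this and each of the other 5 testable genes. In fold terms the interval ran from 0.916 to 1.23. Summed instead over all regions in the RefSeq span of Dmd, the log2 change was 0.28 (edgeR adjusted p 0.999).

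The other sums behaved likewise. Utrn held 187, 174 and 179.5 CPM in wild-type muscle against 169, 181 and 175 in knockout muscle (log2 change -0.04, SE 0.08, 95% interval -0.21 to 0.13). Sgcd held 349, 311 and 356 CPM in wild-type muscle against 347, 355 and 346 in knockout muscle (0.05, SE 0.07, interval -0.10 to 0.19). The wild types of Sgcd spread more than its knockouts, and wild-type replicate 4 was the lowest of the 6. Sgcz held 403, 379.7 and 381 CPM in wild-type muscle against 385, 365 and 367 in knockout muscle (-0.06, SE 0.07, interval -0.20 to 0.09). Lama2 held 167, 144 and 138 CPM in wild-type muscle against 168, 144 and 162 in knockout muscle (0.08, SE 0.09, interval -0.10 to 0.26). Dtna held 135, 116 and 149.7 CPM in wild-type muscle against 128, 148 and 126 in knockout muscle (-0.0005, SE 0.10, interval -0.19 to 0.19). In none of these 6 genes were the groups separate, where they were in 8.5% of all gene sums.

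By the edgeR quasi-likelihood test with Benjamini-Hochberg adjustment, 0 of the 6 testable gene sums passed an adjusted p of 0.05, beside 0.0393% of all 15265 genes (0 higher and 6 lower). The count was also 0 with DESeq2 and with limma-voom, and 0 of the 6 had an unadjusted p under 0.05, beside 3.58% of all genes. Their median log2 change was 0.02, and that of all genes 0.002. Simulated libraries of this depth returned 35% of gene sums altered 1.5-fold as calls, and 63.5% of those altered 2-fold. These shares are for gene sums in general, whose median SE was 0.22 on the log2 scale. The SE of the 6 member sums was smaller, from 0.07 (Sgcz) to 0.11 (Dmd), so the shares do not describe them. In fold terms the intervals of these sums by symbol lay between 0.864 (lower end, Utrn) and 1.23 (upper end, Dmd), and none reached a 1.5-fold change. Most regions in the sums of Utrn (36 of 44) and Dmd (28 of 37) were intergenic by the authors' annotation. The intervals inside these genes did include a 1.5-fold change, at -0.15 to 0.71 (Dmd) and -0.29 to 0.64 (Utrn) on the log2 scale. So did those at the Lama2 start (-1.65 to 0.69) and the Sgcz start (-0.77 to 0.08).

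**Figure D4:**
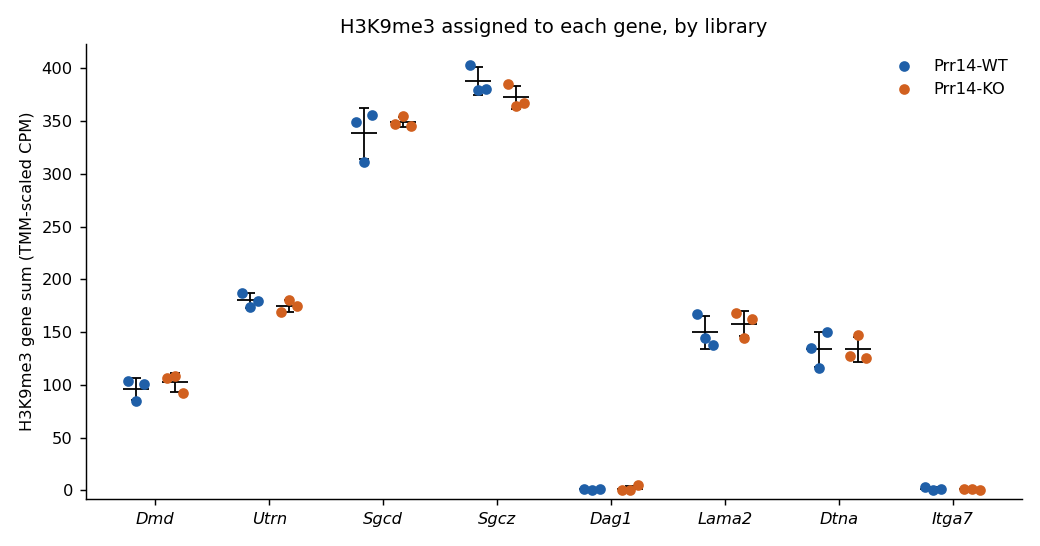
Sum of H3K9me3 over all regions assigned to each gene, in scaled CPM, for each Prr14-WT (blue) and Prr14-KO (orange) library, with the mean and SD as black bars (n = 3). Blue and orange points overlap for all 6 testable genes, and Dag1 and Itga7 lie near 0.

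The next sums follow the authors' annotation, whose shorter gene models can place regions inside a RefSeq span outside the gene. For Sgcd, 65 regions with its symbol lay in the RefSeq span, while 32 were intronic by that annotation. Each gene sum was split into regions within 3 kb of a start, those in introns, exons and untranslated parts, and those outside genes. This gave 14 testable sums for the members. By edgeR 0 of these passed, where 0.0388% of all 25765 such sums did, and 0 had an unadjusted p under 0.05, beside 3.8% of all. DESeq2 and limma-voom called 0 as well. Inside Dmd the intronic sum was 17.6 ± 2.26 CPM in wild-type muscle against 21.3 ± 3.42 in knockout muscle (SD, n = 3; log2 change 0.28, 95% interval -0.15 to 0.71), and outside it was 79.2 ± 8.56 and 81.4 ± 12.3 (0.04, interval -0.19 to 0.27). The sum inside Utrn was 14.7, 13.5 and 16.8 CPM in wild-type muscle against 10.9, 28.8 and 11.2 in knockout muscle. Knockout replicate 5 stood far above the other 5 libraries there, and without it the log2 change went from 0.18 to -0.44. The Sgcz sum near the start, which is the 1 region named above, was 22.2 ± 1.45 and 17.5 ± 2.35 CPM (log2 change -0.34, interval -0.77 to 0.08). Among the 14 sums it was the only one whose groups did not overlap, where 8.79% of all class sums did not.

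Single regions gave the same picture. Of the 326 member regions 231 held enough counts to be tested (18 of Dmd, 35 of Utrn, 56 of Sgcd, 73 of Sgcz, 27 of Lama2, 22 of Dtna and 0 of Dag1 and Itga7). By edgeR 0 of the 231 passed, beside 0.013% of all 153789 tested regions. Without adjustment 4 had a p under 0.05, or 1.73%, beside 3.84% of all regions. DESeq2 and limma-voom also called 0, with 4 and 6 regions at an unadjusted p under 0.05. The genotypes did not overlap in 15 of the 231, or 6.49%, of which 10 were higher and 5 lower, beside 9.61% of all tested regions. Both shares were below those of all regions. The median log2 change was 0.04 over member regions and 0.001 over all. In the authors' deposited table the smallest adjusted p of a member region was 1.00, among 242 that have one. For regions, 4.5% of simulated 2-fold and 59.5% of simulated 4-fold alterations were called, and the depth limits what can be seen at one region.

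**Figure D5:**
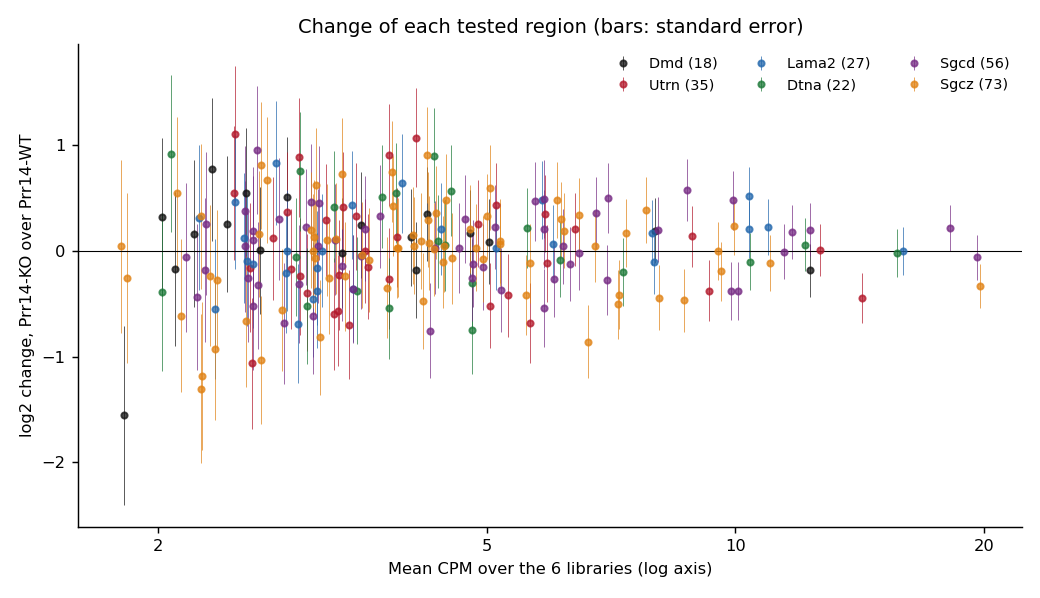
Log2 change of each of the 231 tested member regions, Prr14-KO over Prr14-WT, against its mean CPM over the 6 libraries (log axis), with bars for the standard error and the number of regions of each gene in the key. Points scatter on both sides of 0 for each of the 6 genes, more widely at low CPM.

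Of the regions whose genotypes did not overlap, the 5 with the smallest unadjusted p in each direction are described, and none passed: the edgeR adjusted p was 0.998 for each of the 10. Beyond the 3′ end of Utrn, the region at 12298023 to 12298240 held 18, 7 and 12 counts in wild-type muscle against 27, 25 and 22 in knockout muscle (log2 change 1.07, SE 0.47). In the same stretch the region at 12213072 to 12213301 held 9, 13 and 7 counts in wild-type muscle against 14, 21 and 16 in knockout muscle (0.89, SE 0.56). Both were higher in each knockout than in any wild type. Upstream of Sgcd, at 48022868 to 48023585, the wild types held 29, 38 and 31 counts against 51, 40 and 48 (0.58, SE 0.30). At 47672592 to 47673518, inside the RefSeq span of Sgcd, they held 20, 31 and 30 against 37, 36 and 36 (0.50, SE 0.33). The 3 knockouts were nearly equal at the second of these. Far upstream of Dmd, at 82268988 to 82269259, they held 12, 5 and 7 against 14, 12 and 13 (0.77, SE 0.67).

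Lower in all knockouts was the region 13652 bp upstream of the Dmd start of the authors' table, at 82935149 to 82935353, with 12, 13 and 13 counts in wild-type muscle against 3, 5 and 4 in knockout muscle (-1.55, SE 0.85). It is the region closest to a Dmd start in that table and lies inside the longer RefSeq span. In Utrn the regions at 12081465 to 12081930 (34, 32 and 31 counts against 18, 19 and 20; -0.69, SE 0.38) and 12266409 to 12267053 (29, 25 and 29 against 22, 10 and 23; -0.52, SE 0.40) lay beyond the 3′ end. The Utrn region at 12892700 to 12893189 lay before the start, with 16, 23 and 10 counts against 6, 9 and 7 (-1.06, SE 0.62). So Utrn had regions on either side of 0 within the same stretch. At the Sgcz region just inside the gene the log2 change was -0.33 (SE 0.21). The smallest unadjusted p of a member region, 0.0136 by edgeR, belonged to an intronic Sgcz region at 38288399 to 38289586, chosen here after its values were seen, with 45, 49 and 25 counts against 19, 15 and 28 (log2 change -0.86, SE 0.35, adjusted p 0.998), where the groups overlapped.

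No difference between genotypes was detected in the contrast of gene and flanks. The log2 ratio of gene to flanks was -2.61 ± 0.155 in wild-type muscle against -2.38 ± 0.557 in knockout muscle for Dmd (SD, n = 3), -2.85 ± 0.294 and -2.99 ± 0.773 for Utrn, and -1.76 ± 0.265 and -1.70 ± 0.337 for Lama2. It was -0.59 ± 0.324 and -0.60 ± 0.124 for Dtna, -0.68 ± 0.151 and -0.56 ± 0.0616 for Sgcd, and 0.07 ± 0.0409 and 0.01 ± 0.0423 for Sgcz. The differences between genotypes ran from -0.13 to 0.23. Over the 6 genes the two-sided exact permutation p ran from 0.30 to 1.00, and from 0.90 to 1.00 with Benjamini-Hochberg adjustment, where 3 against 3 cannot give less than 0.10.

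Other genes of the pathway were taken from 4 lists. Of 21 further genes of the dystrophin complex 19 had regions and were tested, of 18 laminin and basement membrane genes 16, of 17 genes that build the sugar chains of dystroglycan 12 had regions and 10 were tested, and of 16 integrin and adhesion genes 14 were tested. By edgeR 0 passed in these lists in either direction, beside 0.0393% of all genes, 0 had an unadjusted p under 0.05, beside 3.58%, and the list medians of the log2 change were -0.02, -0.003, -0.04 and 0.01, beside 0.002 over all genes. In the dystrophin complex list the most of the mark was held by Sntg1, a syntrophin gene, at 1122 ± 51.3 CPM in wild-type muscle against 1108 ± 74.2 in knockout muscle over 216 regions (SD, n = 3; log2 change -0.02, SE 0.07), and the smallest p by Ank3, an ankyrin gene (111 ± 10.4 and 127 ± 14.6 CPM; 0.19, SE 0.10). Among the laminin and basement membrane genes these were Lama1 (128 ± 7.77 and 133 ± 16.0 CPM; 0.05, SE 0.10) and the nidogen gene Nid2 (33.9 ± 1.90 and 27.7 ± 5.58 CPM; -0.29, SE 0.18). Of the dystroglycan glycosylation list, B3galnt2 had the smallest p, with 55.8 ± 5.98 and 65.6 ± 5.96 CPM (0.23, SE 0.13). In the adhesion list Itga1 held 157 ± 1.62 and 174 ± 16.4 CPM (0.15, SE 0.09) and Lims1 5.19 ± 0.981 and 2.68 ± 1.71 CPM (-0.94, SE 0.56). The groups did not overlap for B3galnt2 and for Hspg2, the perlecan gene of the basement membrane list, named after its values were seen (0.53, SE 0.34), beside 8.5% of all gene sums. The edgeR adjusted p was 1.00 for each of these genes. Genes of these lists without a region included Pomt1, Pomgnt1, Dpm1, Gmppb, Sgcb, Sntb2, Lamb2, Col4a2, Itga5 and Tln1.

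Genes whose sums followed those of the members over the 6 libraries were sought among 6415 genes with at least 100 counts per library on average. The highest Pearson correlation of log2 CPM was 0.990 for Dmd with Adam23, 0.988 for Utrn with Prag1, 0.963 for Sgcd with Ret, 0.995 for Sgcz with Hspa13, 0.982 for Lama2 with Anxa5 and 0.993 for Dtna with Baalc. Each is the highest of many correlations over 6 libraries that share one scaling, and is given as a description. In the share of intronic regions and the CPM per kb of region, the gene closest to Dmd (24.3% and 8.51) was Mpped2 (24.1% and 8.97), and the gene closest to Sgcz (79.6% and 9.55) was Arl15 (79.3% and 9.44).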

How the data were processed

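H3K9me3 CUT&Tag was measured in 6 quadriceps libraries, grouped by the genotype label. The build GRCm38 and the tools BWA, Trimmomatic, bedtools, MACS2, DESeq2 1.6.3 and deepTools are named in the submitters' processing notes; settings, and whether regions were called on pooled libraries, are not given in the sources used here. Per the file headers the authors deposited, for each region, a count per library, taken here as raw. They also deposited a normalised signal (the count divided by a factor per library), a log2 fold change, a p-value with its adjusted p-value, a score and the distance to a start site; of these only the distance and, where named, the adjusted p-value are printed.

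Counts of regions, of sums by the authors' gene symbol and of sums by symbol and class were each fitted over the whole table with edgeR 4.0.16 in R 4.3.3: filterByExpr (minimum count 10, minimum total 15; 75.9% of regions and 70.9% of member regions tested), TMM scaling and a robust quasi-likelihood test, with Benjamini-Hochberg adjustment over all features and a threshold of 0.05. No spike-in is named, so a change shared by all regions is scaled away. 681 regions have no symbol. Scaled CPM use the factors of the gene sums, and class sums their own. Gene spans and start sites are those of RefSeq on GRCm38.p6. Densities, promoter windows and the comparison with long genes were added after the files had been seen; ratios over all long genes used a pseudocount of 0.1 CPM per 100 kb.

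The members and lists were chosen with earlier results of these data known. Named regions were, for each member, the strongest, the nearest to a start and those at promoters or exons, and over all members up to 5 per direction with separate groups and the smallest p. Of each pathway list, the gene with the highest sum and that with the smallest p are named, except where a gene is not reported here, and for each member the gene with the most correlated sum. Alternatives were RLE factors, library totals, DESeq2 1.42.0, limma-voom (limma 3.58.1), a fit without robust weighting, other filters (any count, a mean of 20), an adjusted p of 0.10, leaving out X and Y, regions under 500 bp or each library, and other sets of regions per gene. The tests were checked on simulated counts.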

Additional observations from a re-analysis of the deposited data

How the results depend on the processing

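No paired analysis was possible because the genotypes share only the replicate number 4. Without the X and Y chromosomes the counts over the whole table went to 11 regions (from 20), 3 gene sums (from 6) and 5 class sums (from 10); without regions under 500 bp 12 regions passed. Leaving out each library gave 15 to 19 regions, 6 to 18 gene sums and 9 to 18 class sums, with 18 in each of the latter without Prr14-KO replicate 4. Members passed under none of the alternatives run: over 107 values of the 6 gene sums, 206 of the 14 class sums and 250 of the 18 regions, the smallest adjusted p was 0.795, 0.654 and 0.971.

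Signs of small changes did turn. Without regions under 500 bp the log2 change of the gene sum was -0.037 for Dmd and 0.11 for Dtna, and that of the class sum was -0.041 outside Dmd, 0.051 inside Dtna and -0.016 outside Sgcd. With regions outside genes only, the gene sum of Sgcz gave 0.10 and that of Dtna 0.13. Dtna gave 0.011 with library totals, 0.0023 with limma-voom and 0.0050 with a mean count of 20. With any count above 0, Sgcd outside gave -0.0016. The strongest Dtna region gave 0.0061 with limma-voom, and the strongest Lama2 region 0.00089 with a mean count of 20.

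Leaving out each library, the gene sum of Sgcd ran from -0.0090 to 0.075 and that of Dtna from -0.088 to 0.082. Class sums ran from -0.045 to 0.16 outside Dmd, -0.013 to 0.14 outside Lama2, -1.65 to 0.013 at the Lama2 start, -0.059 to 0.056 outside Sgcd, -0.00082 to 0.13 outside Sgcz and -0.44 to 0.41 inside Utrn. Regions ran from -0.19 to 0.18 (strongest of Dtna), -1.63 to 0.050 (Lama2 start), -0.22 to 0.14 (strongest of Lama2), -0.24 to 0.082 (strongest of Sgcd) and -0.45 to 0.092 (Utrn exon). The cause was not tested.

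The log2 ratio of gene to flanks became -1.93 for Dmd and -0.95 for Dtna with the authors' gene location. With flanks of 1000 kb it was -3.50 for Utrn, -0.29 for Sgcd, 0.21 for Sgcz and -1.40 for Lama2, and with flanks of 250 kb -0.093 for Sgcz, so that gene has no stable sign. Without regions under 500 bp it was -4.03 for Dmd, -4.49 for Utrn, -0.45 for Sgcd, 0.31 for Sgcz and -2.34 for Lama2. Dmd, Utrn, Lama2, Dtna and Sgcd stayed below their flanks under all of these. The depth leaves a median SE of 0.47 on the log2 scale for a member region.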

Other observations

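Among the other pathway genes of the 4 lists, 11 have a span of at least 200 kb, and 8 of these held less of the mark per length inside the gene than in the 500 kb on each side. The log2 ratio of gene to flanks was lowest, at -4.52, for Dtnb, which encodes beta-dystrobrevin, and the median of the 11 was -0.77, beside -0.44 over all 989 long genes, of which 68.4% lay below their flanks. Dst, which encodes a cytoskeletal linker, stood at -2.54. Lama3, the gene of another laminin alpha chain, stood at 0.72, with 11.2 regions per 100 kb, while its relative Lama2 held 2.99. Sntg1 was level with its flanks at 0.04 and had 13.2 regions per 100 kb. In Dtnb the flanks held 104 CPM per 100 kb, and the gene itself 4.41. The contrast was smaller in the number of regions, with 5 per 100 kb in the flanks and 1.88 in the gene. These values cover both genotypes together, were read after the members had been seen, and were not tested.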
